A study of Homo sapiens with 8 samples.

Results

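CLSPN, DBF4, CDC7, TIMELESS, TIPIN, CHEK1, TOPBP1 and ATR code for proteins that watch over DNA replication forks or fire replication origins. They are 8 of the 58395 genes counted in the deposited data, and all 8 were among the 16503 genes with enough reads to be tested. CLSPN and DBF4 were picked because their RNA was lower in the polysome libraries titled U than in those titled CT, with CLSPN uneven between replicate libraries. The other 6 genes were picked by their known function. The polysome contrast between the labels, and everything built on it, is therefore a description for CLSPN and DBF4, and no test of it is given for these genes.

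The ATR kinase is the sensor of stalled replication forks. TOPBP1 switches ATR on, and claspin, the product of CLSPN, is the adaptor that holds the effector kinase CHK1, coded by CHEK1, where ATR can phosphorylate it. TIMELESS and TIPIN form the fork protection complex, which travels with the fork and helps to recruit claspin. CDC7 and its activating subunit DBF4 form the kinase that phosphorylates the MCM helicase to fire origins, and claspin is also one of its partners. Leukaemia cells divide quickly and depend on this pathway to get through S phase.

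The study asked what happens to RNA and to translation in an acute myeloid leukaemia (AML) line when fibrillarin, the nucleolar methyltransferase coded by FBL, is depleted. OCI-AML3, an established human AML cell line, was infected with a hairpin against FBL (shFBL) or a control hairpin (shCT), and both kinds of cells then spent 15 min in 100 µg/mL cycloheximide, a drug that stalls ribosomes on their mRNAs. Each lysate gave 100 µL of input RNA, and 290 µL was spun through a 10 to 50% sucrose gradient cut into 14 fractions. The sources used here do not say which fractions were combined as polysome RNA. The 8 libraries form 4 groups of 2, which are polysome RNA labelled FBL knockdown (titled U), polysome RNA labelled WT (titled CT), input RNA labelled FBL knockdown and input RNA labelled WT. Libraries of a group are numbered 1 and 2 in their titles. The labels name no second line, no second hairpin and no separate cultures, so each p-value reflects the scatter among these libraries alone, and that scatter may be technical. All cells of both labels carried a hairpin and were exposed to cycloheximide.

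Reads assigned to genes numbered 22171255 in the shallowest library, polysome knockdown 2, and 43118190 in the deepest, input knockdown 2. The targeted gene did not follow the labels. FBL was at 499 and 165 CPM (read counts scaled to the size of each library) in polysome libraries 1 and 2 labelled knockdown, against 498 and 163 CPM in polysome libraries 1 and 2 labelled control. In input RNA it was at 253 and 84.2 CPM in the libraries labelled knockdown, against 250 and 88.1 CPM in those labelled control. Its level followed the library number, with each library numbered 2 at 32.8 to 35.2% of the library numbered 1 of its group. The groups are therefore called by their labels throughout, and every direction below rests on labels that the targeted gene goes against. Of 12 markers of myeloid leukaemia cells, 11 reached 1 CPM in at least 1 library, CD68 being the exception. Of 20 markers of T, B, erythroid, fibroblast and epithelial cells, 14 stayed under 1 CPM in every library and 9, CD3D and EPCAM among them, had no read. Their summed level was 10.8 to 12.7 CPM in polysome libraries labelled knockdown, against 7.44 to 10.2 CPM in those labelled control. In input RNA the sum was 9.81 to 11.5 CPM in the libraries labelled knockdown, against 6.66 to 8.04 CPM in those labelled control. The part of these differences in the results below was not tested.

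The 8 genes lie on 6 chromosomes of GRCh38 and are all protein-coding in GENCODE v29. CLSPN (ENSG00000092853) spans chr1:35720218-35769967 on the minus strand, with 27 exon blocks. DBF4 (ENSG00000006634) spans chr7:87876216-87909541 on the plus strand, with 12 exon blocks, and CDC7 (ENSG00000097046) spans chr1:91500893-91525764 on the plus strand. TIMELESS (ENSG00000111602) lies at chr12:56416373-56449403 and TIPIN (ENSG00000075131) at chr15:66336206-66386746, both on the minus strand. CHEK1 (ENSG00000149554) lies at chr11:125625136-125676255 on the plus strand. TOPBP1 (ENSG00000163781) at chr3:133598175-133662380 and ATR (ENSG00000175054) at chr3:142449235-142578826 share the minus strand of chromosome 3. Counts here are for whole genes, so the transcripts of a gene are not told apart. The annotation lists 8 transcripts of DBF4, of which 1 is coding, 3 are marked for nonsense-mediated decay and 4 retain an intron, whereas 4 of the 6 CLSPN transcripts are coding.

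CLSPN, DBF4 and CDC7 had the lowest label contrasts of the 8 genes in polysome RNA, so the DNA at their start sites is shown. All 8 genes matched an entry in the RefSeq promoter table (GRCh38.p14), which gives 250 bases before and 50 after each start. The windows below hold letters known from genes that E2F factors switch on for S phase (TTTCCCGC, TTTGGCGC, TTTCGCGC or TTTGCCGC) or the cell cycle homology region that many G2 and mitosis genes carry (CHR, TTTGAA), searched on both strands, with the match in capitals and each window read 5′ to 3′ on the strand of the gene.
CLSPN, E2F letters on the opposite strand, chr1:35769965-35769994, minus strand: actctggctggGCGGGAAAgcaagaacagc
DBF4, CHR letters on the opposite strand, chr7:87876478-87876507, plus strand: gcgtgacgcgttTTCAAAtcttcaaccgcc
CDC7, E2F letters on the same strand, chr1:91501033-91501062, plus strand: gtgcagttcctTTTCCCGCcccccttcgga
CDC7, E2F letters on the opposite strand, chr1:91501067-91501096, plus strand: tccgacctgcgGCGGGAAAgtcgcgcgcct
The CLSPN match runs from position -5 to 3 around the start, the CDC7 matches from -68 to -61 and from -34 to -27, and the DBF4 match from -3 to 3. TIPIN and TOPBP1 also held E2F letters, so that 4 of the 8 genes did, against 3.99% of the 27305 genes in the table. In TIPIN the matches on both strands overlap each other. CHR letters were found for DBF4 alone among the 8, against 18.2% of all genes. A match is a description of these letters only.

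In input RNA the 8 genes were compared per length of annotated exon, with the exons of all transcripts of a gene merged. A gene whose expressed transcripts are shorter than this merged length comes out too low, and which transcripts were present was not tested. TIMELESS was the highest, at 35.6 ± 2.45 TPM, a count scaled for exon length and library size (SD, n = 4 input libraries of both labels). TOPBP1 (28.0 ± 2.54 TPM), TIPIN (25.4 ± 4.62 TPM), CDC7 (24.8 ± 3.14 TPM) and CHEK1 (23.1 ± 4.86 TPM) followed, and each of these overlapped its neighbour in the order. DBF4 at 12.8 ± 1.19 TPM, ATR at 5.06 ± 0.551 TPM and CLSPN at 3.31 ± 0.583 TPM came last, with no overlap between them. On this scale the catalytic subunit of the origin kinase stood above its activator in input RNA, with 21.8 to 28.7 TPM for CDC7 and 11.6 to 14.5 TPM for DBF4. Without the scaling for length the order was the same, at 25.5 to 33.5 CPM for CDC7 and 17.6 to 21.1 CPM for DBF4. In polysome RNA CLSPN, the lowest of the 8 in input RNA, spanned 3.79 to 77.5 TPM and so overlapped TIMELESS (43.0 to 54.8 TPM) and TIPIN (17.6 to 21.2 TPM). DBF4 (1.36 to 7.70 TPM) and ATR (2.21 to 3.42 TPM) had the lowest means in polysome RNA and overlapped each other. DBF4 also overlapped CLSPN and CDC7 (6.56 to 14.6 TPM).

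**Figure D1:**
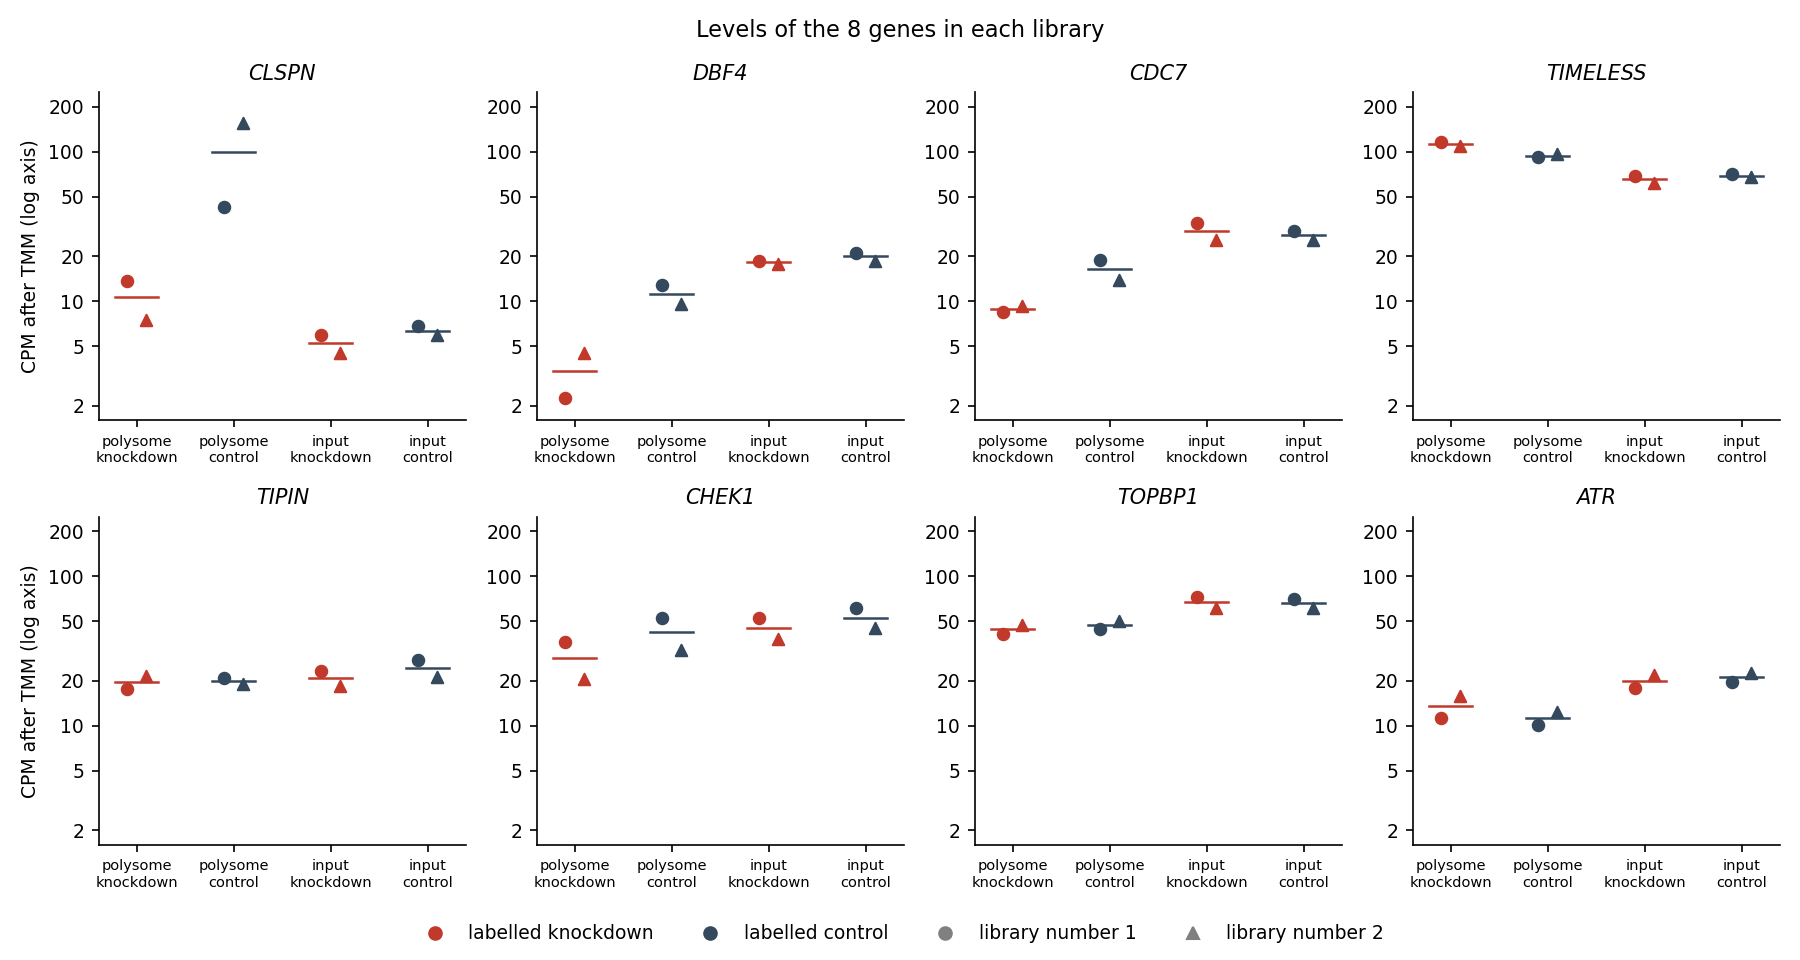
Level of each of the 8 genes in every library, in CPM after TMM normalization on a log axis, by group. Points are libraries (circle, number 1; triangle, number 2), bars are group means of 2 libraries, and CLSPN in polysome RNA labelled control (42.5 and 155 CPM) stands apart from its level in the other 3 groups.

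The first comparison asked whether the 8 mRNAs differed between the labels in input RNA, the total RNA of the lysate. None of the 8 passed the test, at an unadjusted p either, and DESeq2 also called 0. In the fit over all genes (edgeR quasi-likelihood test, Benjamini-Hochberg adjusted p under 0.05) 0 of 16503 genes passed, which is 0%, with 744 genes at an unadjusted p under 0.05 and 37 called by DESeq2. CLSPN was at 5.93 and 4.50 CPM in the libraries labelled knockdown, against 6.79 and 5.90 CPM in those labelled control, and the groups overlapped. Its log2 fold change was -0.29 with an SE of 0.51 (adjusted p = 1). DBF4 was at 18.7 and 17.6 CPM in the libraries labelled knockdown, against 21.1 and 18.7 CPM in those labelled control (log2 fold change -0.14 ± 0.32, adjusted p = 1). DBF4 was the only one of the 8 whose groups did not overlap, and of all genes tested 41.4% had groups that did not overlap, 20.3% with the knockdown label lower, as in DBF4. CDC7, at 33.5 and 25.5 CPM in the libraries labelled knockdown and 29.4 and 25.8 CPM in those labelled control, had a log2 fold change of 0.10 ± 0.23. For TIMELESS, TIPIN, CHEK1, TOPBP1 and ATR the log2 fold changes lay between -0.23 and 0.02, each with an adjusted p of 1. These RNAs come from bulk lysates, where fewer cells of a type and less RNA per cell cannot be told apart.

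The second comparison asked the same of polysome RNA, meant to be the RNA sedimenting with several ribosomes, though the fractions combined are not known here. CLSPN and DBF4 were lower in the libraries labelled knockdown, as they were chosen to be. Of the other 6 genes 0 passed the edgeR test, CDC7 and TIMELESS had an unadjusted p under 0.05, and DESeq2 called CDC7. Of all 16503 genes 145 passed, which is 0.879%, with 41 higher (0.248%) and 104 lower (0.630%) in the libraries labelled knockdown. With upper quartile scaling 53 were higher and 48 lower. This background is unsteady, since the count ranged from 0 without polysome control 2 to 1455 without polysome knockdown 1, and leaving out any of the 8 libraries moved it by over 1.5 times.

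CLSPN, the claspin gene, was at 13.7 and 7.52 CPM in polysome RNA labelled knockdown, against 42.5 and 155 CPM in polysome RNA labelled control. Those values rest on 493 and 156 reads in the libraries labelled knockdown, against 1468 and 5608 reads in those labelled control. Every library labelled control was above every library labelled knockdown, as for 23.6% of all genes tested, and polysome control 2 was far above all the others. The fitted log2 fold change was -3.20 ± 0.53 (SE), or a mean of 10.6 ± 4.39 CPM (SD, n = 2) in the libraries labelled knockdown and 98.5 ± 79.2 CPM (n = 2) in those labelled control. One library sets much of this size, since the log2 fold change was -1.99 without polysome control 2. Taken within library numbers, the log2 difference between the labels was -1.63 in the libraries numbered 1 and -4.36 in those numbered 2. The gap between the polysome control libraries was 3.64-fold. An antisense gene that shares 280 exon bases with CLSPN (ENSG00000232335) had 0 to 2 reads per library.

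DBF4, the activating subunit of the CDC7 kinase, was at 2.26 and 4.53 CPM in polysome RNA labelled knockdown, against 12.9 and 9.59 CPM in polysome RNA labelled control. The reads behind these values numbered 81 and 94 in the libraries labelled knockdown, against 445 and 348 in those labelled control. Both libraries labelled knockdown lay under both labelled control, as for 23.6% of all genes tested. The fitted log2 fold change was -1.75 ± 0.34 (SE). The lower library differed between the labels, since number 1 was the lower one among those labelled knockdown and number 2 among those labelled control. The log2 difference between the labels was -2.51 in the libraries numbered 1 and -1.08 in those numbered 2, and leaving out 1 library at a time gave fitted values from -2.31 to -1.31. DBF4 shares 142 exon bases with SLC25A40, a mitochondrial carrier gene on the opposite strand, and the sources used here do not say whether the counting used strand. SLC25A40 itself was at 7.02 and 5.16 CPM in polysome RNA labelled knockdown, against 5.96 and 2.34 CPM in polysome RNA labelled control (log2 fold change 0.56 ± 0.41, adjusted p = 0.493). The processed pseudogene DBF4P1 had 0 to 5 reads per library.

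CDC7, the kinase that DBF4 activates, was at 8.47 and 9.26 CPM in polysome RNA labelled knockdown, against 18.9 and 13.8 CPM in polysome RNA labelled control. The groups did not overlap, which was so for 39.0% of all genes tested and, in this direction, for 23.6%. Its log2 fold change was -0.88 ± 0.24 (SE), and it did not pass (adjusted p = 0.102). Both library numbers gave a value below 0, at -1.16 for number 1 and -0.57 for number 2. DBF4 was below 0 in both numbers as well, but it was chosen for being lower in this contrast. The shared sign of the 2 subunits is therefore a description only.

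The fork protection complex showed no difference that passed. TIMELESS was at 116 and 109 CPM in polysome RNA labelled knockdown, against 91.3 and 95.9 CPM in polysome RNA labelled control, with groups that did not overlap (log2 fold change 0.26 ± 0.12, adjusted p = 0.275). Groups that do not overlap in this direction were found for 15.4% of genes. Its partner TIPIN was at 17.6 and 21.5 CPM in polysome RNA labelled knockdown, against 20.8 and 19.0 CPM in polysome RNA labelled control, where the groups overlapped (log2 fold change -0.03 ± 0.23, adjusted p = 0.991).

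The ATR branch also had no member past the threshold in polysome RNA. CHEK1, coding for the effector kinase CHK1, was at 36.1 and 20.5 CPM in the libraries labelled knockdown, against 52.8 and 31.8 CPM in those labelled control. Its groups overlapped, but within each number the library labelled knockdown was the lower one, by -0.55 and -0.63 on the log2 scale for numbers 1 and 2 (fitted log2 fold change -0.57 ± 0.31, adjusted p = 0.355). CHEK1 shares 80 exon bases with STT3A on the same strand, and STT3A had a log2 fold change of 0.43 ± 0.19 (adjusted p = 0.281). TOPBP1, the ATR activator, was at 41.2 and 47.1 CPM in polysome RNA labelled knockdown, against 44.2 and 50.3 CPM in polysome RNA labelled control (log2 fold change -0.10 ± 0.16, adjusted p = 0.8). ATR was at 11.2 and 15.7 CPM in polysome RNA labelled knockdown, against 10.1 and 12.4 CPM in polysome RNA labelled control (log2 fold change 0.26 ± 0.25, adjusted p = 0.633). Both genes had groups that overlapped.

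**Figure D2:**
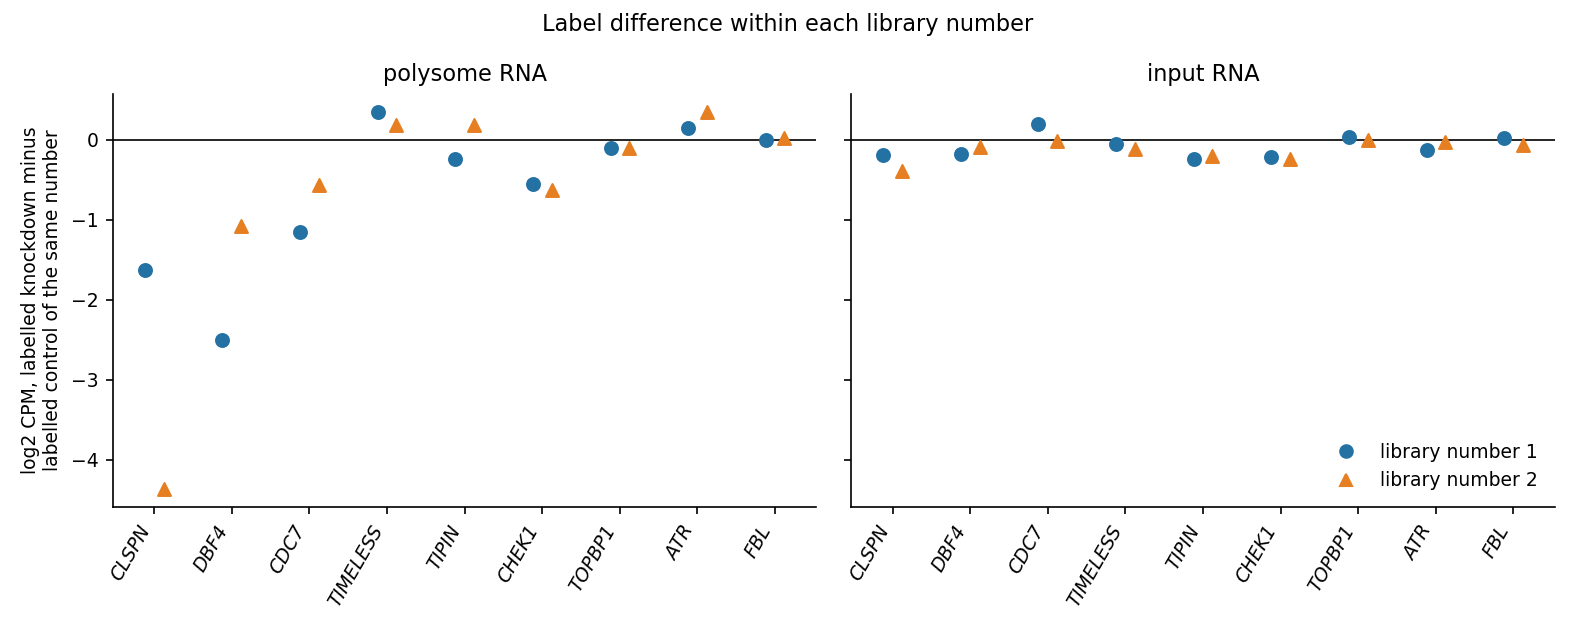
Difference in log2 CPM between the library labelled knockdown and the library labelled control of the same number, in polysome RNA (left) and input RNA (right), for the 8 genes and FBL. Circles are libraries numbered 1 and triangles those numbered 2. In polysome RNA CLSPN lies at -1.63 and -4.36 and DBF4 at -2.51 and -1.08, whereas in input RNA all 8 genes lie between -0.39 and 0.19.

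The third comparison asked whether the label contrast in polysome RNA differed from that in input RNA. Of the 6 genes chosen by function 0 passed, CDC7 had an unadjusted p under 0.05 and DESeq2 called 0. In all genes 0 of 16503 did (0%), with 1046 genes at an unadjusted p under 0.05 and 4 called by DESeq2. The difference of the log2 fold changes was -0.98 ± 0.33 for CDC7 (SE, adjusted p = 0.767) and 0.35 ± 0.17 for TIMELESS (adjusted p = 0.775). It was -0.34 ± 0.44 for CHEK1, 0.33 ± 0.35 for ATR, 0.20 ± 0.32 for TIPIN and -0.12 ± 0.22 for TOPBP1. For CLSPN it was -2.91 ± 0.72 and for DBF4 -1.61 ± 0.46, given without a test because the polysome contrast is part of them.

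The fourth comparison set polysome RNA against input RNA over both labels. It compares the share of each mRNA in the polysome libraries with its share in the input libraries. Levels are scaled within each library, so the amount of an mRNA on ribosomes was not measured. Of the 6 genes chosen by function, 1 was higher and 3 were lower in polysome RNA, in a comparison in which 42.9% of all genes passed, 20.0% higher and 22.8% lower. TIMELESS was higher, with 116 and 109 CPM in polysome RNA labelled knockdown and 91.3 and 95.9 CPM in polysome RNA labelled control, against 61.8 to 70.8 CPM in the 4 input libraries (log2 fold change 0.61 ± 0.08, SE, adjusted p = 2.2e-04). CDC7 was lower in polysome RNA, by -1.25 ± 0.17 on the log2 scale (adjusted p = 2.0e-04). TOPBP1 was at 41.2 to 50.3 CPM in the 4 polysome libraries, against 61.1 to 72.1 CPM in the 4 input libraries (-0.54 ± 0.11, adjusted p = 0.0029). ATR was lower too, at 10.1 to 15.7 CPM in polysome RNA, against 17.9 to 22.4 CPM in input RNA (-0.74 ± 0.18, adjusted p = 0.007). TIMELESS was above input RNA in all 4 lysates, as were 23.8% of all genes tested. CDC7, TOPBP1, ATR and CHEK1 were below it in all 4, as were 32.1%. TIPIN did not pass (-0.20 ± 0.16, adjusted p = 0.355). CHEK1 did not pass either (-0.49 ± 0.22, adjusted p = 0.101), but when the input and polysome libraries of a lysate were paired it did, at -0.52 ± 0.11 (adjusted p = 6.9e-04). The median log2 fold change was -0.51 over the 8 genes and -0.22 over all genes.

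CLSPN and DBF4 lay on opposite sides in this comparison, at 2.50 ± 0.37 for CLSPN and -1.63 ± 0.23 for DBF4 on the log2 scale (SE). No test is given for these, because the polysome libraries that chose them enter the mean. The ratio of polysome to input CPM within each lysate shows the spread. For CLSPN it was 2.32 and 1.67 in lysates 1 and 2 labelled knockdown, against 6.26 and 26.2 in lysates 1 and 2 labelled control. In both lysates labelled control no other of the 9724 genes compared had a higher ratio, and 274 and 1409 genes had one in lysates 1 and 2 labelled knockdown. These ranks rest on the polysome values by which CLSPN was picked, so they are a description only. The ratio of CLSPN was above 1 in all 4 lysates, as it was for 23.8% of all genes tested.

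For DBF4 the ratio was 0.121 and 0.258 in the lysates labelled knockdown, against 0.609 and 0.512 in those labelled control, and it was under 1 in all 4, as for 32.1% of genes. Of the 9724 genes, 44 and 342 had a lower ratio in lysates 1 and 2 labelled knockdown, against 2052 and 1246 in lysates 1 and 2 labelled control. DBF4 was picked on its polysome values too, so its ranks are a description only. CDC7 had ratios of 0.253 and 0.363 in the lysates labelled knockdown, against 0.643 and 0.534 in those labelled control, and so was near DBF4 in the lysates labelled control. TIMELESS had the reverse order, with 1.69 and 1.76 in the lysates labelled knockdown, against 1.29 and 1.43 in those labelled control. For TIPIN, CHEK1, TOPBP1 and ATR the ratios lay between 0.515 and 1.17, and the median ratio of all genes compared was 0.969 to 1.04.

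**Figure D3:**
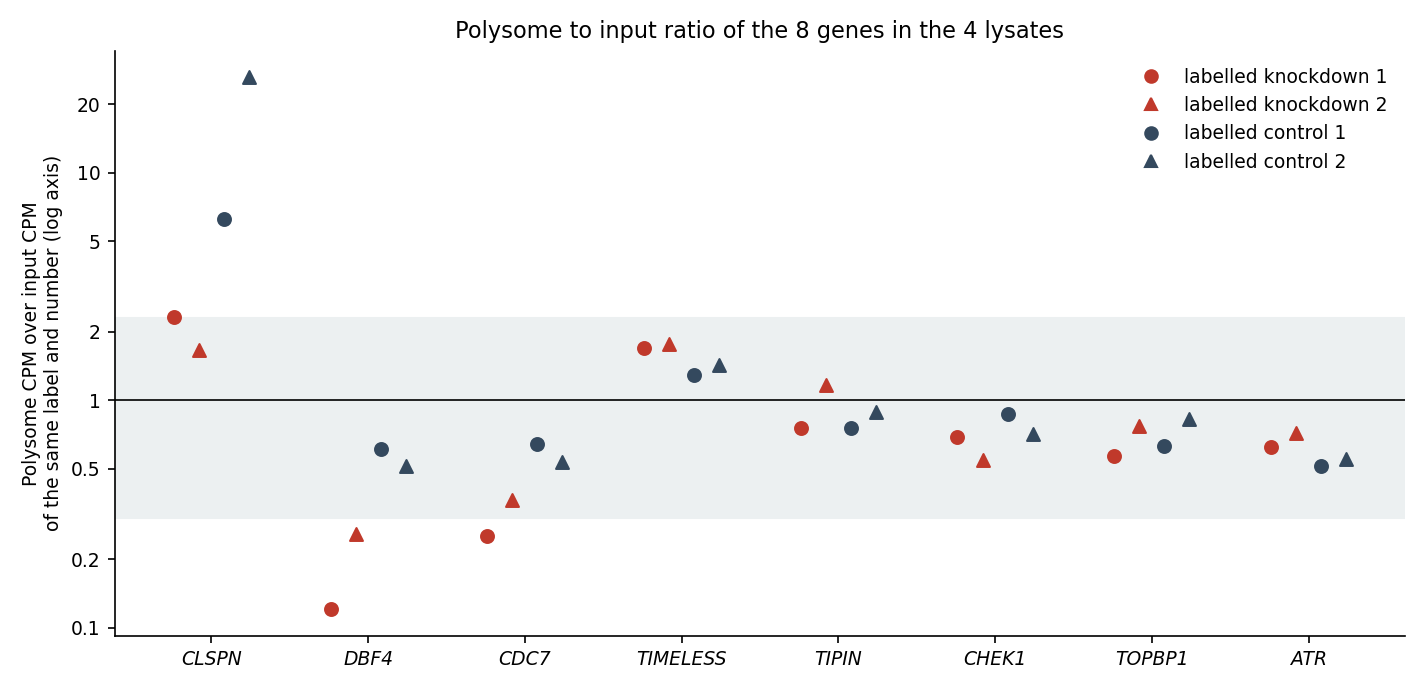
Ratio of polysome to input CPM in the 4 lysates for each gene, on a log axis; red points are lysates labelled knockdown and dark points those labelled control. The grey band spans 0.304 to 2.29, the lowest 5th and the highest 95th percentile of the 9724 genes compared over the lysates. CLSPN lies above the band in lysate 1 labelled knockdown (2.32) and in both lysates labelled control (6.26 and 26.2). DBF4 lies below it in both lysates labelled knockdown (0.121 and 0.258), and CDC7 in lysate 1 labelled knockdown (0.253).

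The last comparison set the libraries numbered 2 against those numbered 1 over all 4 groups. The labels give the number no treatment, but FBL followed it (log2 fold change -1.57 ± 0.05, SE, adjusted p = 2.3e-07). Of all genes 300 passed, which is 1.82%. Of the 8 genes CHEK1 passed, with a lower level in number 2 in each of the 4 groups. Its level in number 2 was 56.9% of that in number 1 in polysome RNA labelled knockdown, 60.3% in polysome RNA labelled control, 72.4% in input RNA labelled knockdown and 73.7% in input RNA labelled control. The log2 fold change was -0.61 ± 0.11 (SE, adjusted p = 0.016), and the call was lost without polysome control 1 (adjusted p = 0.082) or polysome control 2 (adjusted p = 0.068).

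ATR was higher in number 2 in all 4 groups, at 115 to 140% of number 1, and did not pass (log2 fold change 0.32 ± 0.15, adjusted p = 0.425). CDC7 (-0.23 ± 0.15, adjusted p = 0.598), TIMELESS (-0.06 ± 0.07), TIPIN (-0.14 ± 0.15), TOPBP1 (-0.02 ± 0.10) and DBF4 (0.04 ± 0.23) did not pass. CLSPN went opposite ways in polysome RNA, with number 2 at 54.8% of number 1 in the libraries labelled knockdown and at 364% in those labelled control. In input RNA its number 2 was at 75.8% in the libraries labelled knockdown and at 86.9% in those labelled control. CLSPN was chosen in part for this unevenness, so no test of it is given.

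**Figure D4:**
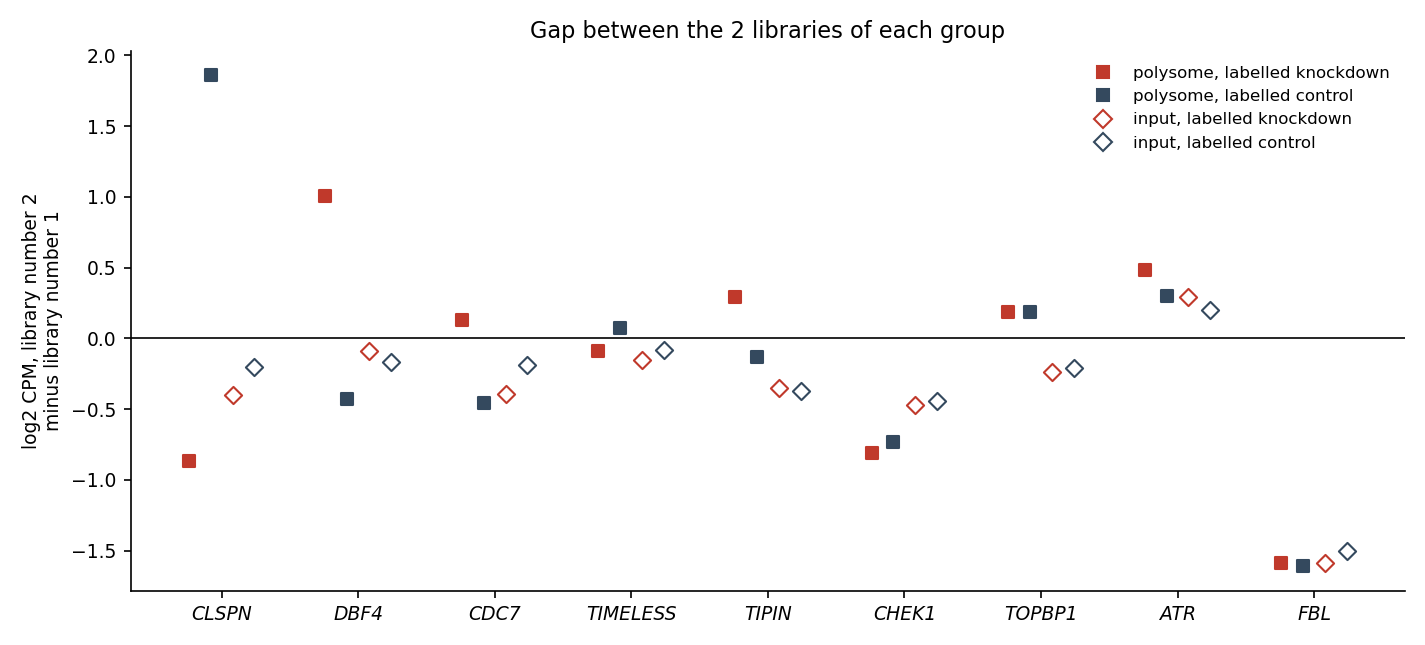
Log2 CPM of library number 2 minus library number 1 in each of the 4 groups, for the 8 genes and FBL. Squares are polysome and open diamonds input groups. FBL lies between -1.61 and -1.50 in all 4 groups and CHEK1 between -0.81 and -0.44, whereas CLSPN spans -0.87 to 1.86.

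The partners of these genes were looked at in 5 lists. The 17 genes of the 9-1-1 clamp, its loader and the factors that help to activate ATR held 0 genes past the threshold between the labels in polysome RNA (median log2 fold change 0.02, against -0.06 over all genes). At an unadjusted p under 0.05 there were 2, RFC5 and RHNO1, and DESeq2 called RHNO1. RFC5, a subunit of the clamp loader, was the highest at 0.82 ± 0.26 (adjusted p = 0.141), and NBN of the MRE11 complex was the lowest at -0.35 ± 0.18 (adjusted p = 0.321). Against input RNA 4 of the 17 were higher and 8 lower in polysome RNA, where 20.0% of all genes were higher and 22.8% lower (median -0.40, against -0.22 over all genes). ATRIP, the partner of ATR, was higher at 0.90 ± 0.11 (adjusted p = 1.3e-04). The other activator of ATR, ETAA1, fell by 1.59 on the log2 scale in polysome against input RNA, and RAD17, which loads the clamp, fell by 1.47.

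The 13 effectors downstream of CHK1 and of the ATM branch held 0 genes past the threshold between the labels in polysome RNA (median 0.11). At an unadjusted p under 0.05 there were 3, CDC25A, CDC25B and CDK1, and DESeq2 called CDC25A lower and CDK1 higher. The extremes were CDC25A, the phosphatase that CHK1 marks for destruction, at -0.77 ± 0.22 (adjusted p = 0.11), and CDK1 at 0.58 ± 0.17 (adjusted p = 0.123). Of all genes tested 1.82% passed between library numbers, and 0.939% were lower in number 2. Of the 13 effectors 2 passed between numbers, and both were lower in number 2, as CHEK1 was. These were CHEK2, the kinase of the ATM branch, at -0.69 ± 0.08 (adjusted p = 0.0022), and CDC25A at -0.41 ± 0.07 (adjusted p = 0.017), which lost the call without polysome control 1 or 2 (adjusted p = 0.099 and 0.089). Set against the 20.0% of all genes that were higher and the 22.8% that were lower in polysome than in input RNA, 3 of the 13 were higher and 3 lower.

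Of 11 genes for the turnover of claspin and CHK1, 1 passed between the labels in polysome RNA, where 0.879% of all genes passed and 0.630% were lower. USP20, a deubiquitinase that stabilises claspin, was at 104 ± 0.726 CPM in the libraries labelled knockdown, against 182 ± 11.1 CPM in those labelled control (SD, n = 2 each). Its log2 fold change was -0.81 ± 0.11 (adjusted p = 0.033). That call held under 8 of 14 alternatives, and the adjusted p ranged from 8.8e-07 to 0.272. The median log2 fold change of the 11 was -0.29, against -0.06 over all genes, and the other 10 did not pass. All 11 had a log2 fold change below 0. At an unadjusted p under 0.05 there were 3, FZR1, USP20 and CUL4A, and DESeq2 called USP20. Against input RNA 5 of the 11 were higher in polysome RNA, among them FZR1, an activator of the anaphase-promoting complex, at 1.10 on the log2 scale. The deubiquitinase USP1 was the 1 gene that was lower, at -0.52, and over all genes 20.0% were higher and 22.8% lower.

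The 30 genes of origin firing, which include the MCM helicase that the CDC7 kinase phosphorylates, held 0 genes past the threshold between the labels in polysome RNA (median 0.01). At an unadjusted p under 0.05 there were 4, RIF1, ORC3, RECQL4 and CDT1, and DESeq2 called RECQL4. RIF1, which opposes the CDC7 kinase through a phosphatase, was at -0.67 ± 0.21 (adjusted p = 0.152), and GMNN, the inhibitor of origin licensing, was at 0.81 ± 0.40 (adjusted p = 0.315). DBF4B, which codes for a second activating subunit of CDC7, was at 0.10 ± 0.23 (adjusted p = 0.887), with a mean of 21.4 CPM in polysome RNA labelled knockdown and 20.0 CPM in polysome RNA labelled control. Against input RNA 10 of the 30 were higher and 10 lower in polysome RNA, beside 20.0% and 22.8% of all genes. MCM2 at 1.10 and MCM7 at 1.08 were on one side, and MTBP at -1.83 ± 0.63 (SE, adjusted p = 0.04) and DONSON at -1.43 on the other. MTBP was at low levels, with means of 2.90 and 2.78 CPM in input RNA labelled knockdown and control. In polysome RNA its means were 1.47 CPM for the knockdown label and 0.430 CPM for the control label. MCM4 was the 1 gene of the list that passed between numbers (-0.31 ± 0.05, adjusted p = 0.011), and it lost the call without polysome control 1 or 2 (adjusted p = 0.078 and 0.072).

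Of 15 genes that mark S phase 1 passed between the labels in polysome RNA. E2F1, the transcription factor that drives S-phase genes, was at 122 ± 17.2 CPM in the libraries labelled knockdown, against 202 ± 17.3 CPM in those labelled control (SD, n = 2 each). Its log2 fold change was -0.73 ± 0.13 (adjusted p = 0.04). That call held under 5 of 14 alternatives, with an adjusted p from 1.0e-04 to 0.298. MKI67, PCNA and TK1, which follow the share of cycling cells, were at 0.04, 0.11 and 0.09 on the log2 scale and did not pass. Between numbers RRM2 (-0.48 ± 0.09, adjusted p = 0.018) and FEN1 (-0.28 ± 0.05, adjusted p = 0.022) were lower in number 2, and FEN1 lost the call without polysome control 1 or 2 (adjusted p = 0.105 and 0.099).

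The genes whose profile over the 8 libraries was most like that of CLSPN were named by the root mean square difference of centred log2 CPM, among 10875 genes that reached 5 CPM. The nearest was PTMAP5, a transcribed processed pseudogene of prothymosin alpha, at a difference of 0.70 log2 units. It was at 4.96 and 3.52 CPM in polysome RNA labelled knockdown, against 10.1 and 44.4 CPM in polysome RNA labelled control, and so was highest in the same library as CLSPN. Reads of PTMAP5 can be shared with its parent gene and its other copies, so its level is uncertain. ZNHIT6 (0.90), ENSG00000276570 (0.94), EIF3C (1.02) and ENSG00000281181 (1.02) followed. For DBF4 the nearest genes were FHIP2A (0.30), RBM45 (0.31), ZNF566 (0.34), SLC30A5 (0.34) and SOCS6 (0.35). FHIP2A was at 0.613 and 0.965 CPM in polysome RNA labelled knockdown, against 3.24 and 3.36 CPM in polysome RNA labelled control. PTMAP5 and FHIP2A were picked for likeness over these same 8 libraries, so patterns shared with CLSPN and DBF4 follow from that choice. CDC7 ranked 37 in likeness to DBF4, at 0.45 log2 units, whereas CLSPN ranked 10850, at 2.16.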

How the data were processed

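RNA-seq of input and polysome RNA from OCI-AML3 cells was analysed in 8 libraries. The deposited values are raw read counts per Ensembl gene; per the submitters' processing notes the authors used Trimmomatic 0.38, Bowtie2 and HTSeq 0.11.2 on GRCh38. Annotation release, read layout and strand setting: not given in the sources used here. Lines naming no gene (13.19 to 14.95% of each file) were left out. Names and exon lengths came from GENCODE v29 (58275 of 58395 IDs matched). Counts were fitted with edgeR 4.0.16 (R 4.3.3; filterByExpr, TMM, quasi-likelihood F test, 4 group terms, 4 residual degrees of freedom), called at a Benjamini-Hochberg adjusted p under 0.05 over 16503 genes. The code was tested on simulated data. Library totals of 22171255 to 43118190 reads in genes limit precision for genes of few reads; replicate libraries were not copies (chi-square per degree of freedom 22.1 to 48.7). CPM are on TMM-scaled library sizes, and TPM used raw counts. Ratios of polysome to input compared genes averaging at least 5 CPM.

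The protocol splits each lysate into input and polysome RNA and the titles share numbers, so input and polysome libraries of 1 label and number were taken as pairs (correlation of deviations over genes 0.0659 for the knockdown label and 0.0732 for the control label). Alternatives were other scalings, no filter, DESeq2 1.42.0, blocks, single fractions, and leaving out each library. The 8 genes and the 5 partner lists were chosen with earlier results of these data known. Named from each list were genes past the threshold (at most 4 a direction), otherwise the extremes averaging at least 10 CPM in the higher group; MKI67, PCNA, TK1 and DBF4B were named after their values were seen.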

Additional observations from a re-analysis of the deposited data

How the results depend on the processing

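Without polysome control 2 the log2 fold change of CLSPN in polysome RNA moved to -1.99; depth limits CLSPN in input RNA (200 to 272 reads per library) and DBF4 in polysome RNA (81 to 445 reads). TIMELESS, CDC7, TOPBP1 and ATR in polysome against input RNA kept direction and call under 13 alternatives each. Each value below that differs from the reported one changed for causes that were not tested, except that single-fraction fits and fits without a library hold fewer samples.

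Genes called between the labels in input RNA, reported as 0, numbered 37 with DESeq2, 83 with no filter on low counts, 66 with library number as a replicate block, and 0 to 1 without one library. In polysome RNA the reported 145 became 0 in the 4 polysome libraries alone, 1162 with DESeq2, 1117 with no filter, 1053 with library number as a block, and 0 (without polysome control 2) to 1455 (without polysome knockdown 1) without one library; each of the 8 libraries moved the count by over 1.5 times. CLSPN and DBF4 were chosen on this contrast, so counts over the 8 genes that include them are no test; that count was 2 in the fit used here, 0 in the polysome libraries alone, 1 with relative log expression or upper quartile scaling, 4 with library number as a block, and 0 to 2 without one library. CDC7 passed there with DESeq2 (adjusted p = 0.039), with no filter (adjusted p = 0.041) and with the number block (adjusted p = 0.039), and CHEK1 with the number block (adjusted p = 0.045). Over all alternatives the adjusted p spanned 0.039 to 0.418 for CDC7 and 0.045 to 0.896 for CHEK1. By the labels, same-numbered libraries of different labels share only a number, but FBL and CHEK1 followed that number and 300 genes passed between numbers. Deviations of these libraries correlated at 0.0897 over genes in input and 0.019 in polysome RNA. The lysate pairs correlated at 0.0659 for the knockdown label and 0.0732 for the control label. Whether the number marks a batch was not tested. For the difference of contrasts the reported 0 genes became 4 with DESeq2, 55 with no filter, 9 with the lysate as a replicate block, and 0 to 55 without one library, and the count over the 8 became 1 with DESeq2, with no filter, with the lysate block and without polysome control 1 (range 0 to 1), the 1 being CLSPN, for which this is no test either. The lysate pairing otherwise changed the call of CHEK1 in polysome against input RNA only. Between numbers the reported 300 genes became 609 with DESeq2, 672 with no filter and 137 to 423 without one library (137 without polysome control 1, 143 without polysome control 2), and the 1 gene of the 8, CHEK1, became 0 to 1.

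Some values near 0 changed sign. In input RNA CDC7 was -0.02 within number 2 and -0.14 to 0.27 without one library, TOPBP1 was -0.01 with DESeq2 or relative log expression scaling and -0.13 to 0.12 without one library, and ATR was -0.24 to 0.04 without one library. TIPIN in polysome RNA was 0.04 in the polysome libraries alone and with no filter, 0.02 with DESeq2 or relative log expression scaling, 0.06 with upper quartile scaling, 0.18 within number 2, and -0.18 to 0.11 without one library. For the difference CHEK1 spanned -0.81 to 0.07 and TOPBP1 -0.22 to 0.10 without one library. Between numbers CLSPN spanned -0.49 to 0.52, DBF4 -0.23 to 0.19 and TOPBP1 -0.09 to 0.08.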
